A study of Mus musculus with 16 samples.

Results

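The 41 genes described here encode the machinery of the lysosome: 15 subunits and accessory proteins of the vacuolar ATPase (V-ATPase), 14 lysosomal hydrolases, 9 membrane and other lysosomal proteins, and 3 transcription factors of the MiT family. They were chosen by gene symbol. All 41 were found among the 27179 entries of the expression table, and all 41 were among the 14005 genes with a normalized count of at least 10 in at least 4 libraries.

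RNA was sequenced from PDGFRb+ cells sorted from the inguinal white fat of C57BL/6 mice and then grown in medium with 10% serum. There were 4 groups of 4 libraries: DPP4_pos progenitors given isoproterenol, DPP4_pos progenitors given PBS vehicle, DPP4_neg progenitors given isoproterenol, and DPP4_neg progenitors given PBS vehicle, each for 4 h. Isoproterenol activates beta-adrenergic receptors, which raise cAMP. Its labelled dose, 10 mM, lies far above the micromolar range usual in culture, and the labels do not settle whether the unit is right. Age and sex are not labelled. Nor do the labels tie the 4 libraries of a group to different animals or dishes, and p-values below therefore cover library-to-library spread that could be purely technical. The comparisons ask what isoproterenol changed in each population, and how the populations differed under each treatment.

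Lysosomes digest proteins, glycans, lipids and organelles with hydrolases that need an acid lumen. The V-ATPase makes that acid: its cytosolic V1 sector splits ATP and turns a rotor, and its membrane V0 sector moves protons. Tfeb, Tfe3 and Mitf bind short E-box motifs, of which the longest form is known as the CLEAR motif, in the promoters of many lysosomal genes. Their activity is set largely by phosphorylation and movement into the nucleus, which RNA levels do not show. In fat, lysosomes take part in autophagy and in the breakdown of stored lipid by acid lipase.

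Reads in genes came to 9823799 to 28627223 per library. Pdgfrb, the gene of the sorting marker, averaged 2105 and 7562 normalized counts in DPP4_pos isoproterenol and vehicle libraries, and 9028 and 11315 in DPP4_neg isoproterenol and vehicle libraries. Dpp4 averaged 2223 and 3053 normalized counts in DPP4_pos isoproterenol and vehicle libraries, against 9.89 and 21.1 in DPP4_neg isoproterenol and vehicle libraries. All 6 cAMP response genes checked (Nr4a1, Crem, Sik1, Pde4d, Fos and Dio2) had higher means under isoproterenol in both populations. Total normalized counts averaged 18515772 in DPP4_pos isoproterenol and 15319364 in DPP4_pos vehicle libraries, but 16155351 and 16017086 in DPP4_neg isoproterenol and vehicle libraries. The 41 genes took 1.29% of that total in DPP4_pos isoproterenol and 1.51% in DPP4_pos vehicle libraries, and 0.940% and 0.836% in DPP4_neg isoproterenol and vehicle libraries. Values per gene are as deposited, called normalized counts below. They behave as read counts divided by a size factor per library, which was inferred from the values. How libraries were scaled therefore matters for the DPP4_pos response.

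The promoters are shown first, because the MiT factors are known for the motif they bind in them. RefSeq windows from 250 bases before to 50 bases after an annotated start (build GRCm38.p6) were at hand for 35 of the 41 genes, 44 windows in all. The windows were searched on both strands. TCACGTGA, the core of the CLEAR motif, was in 7 of the 44 windows (15.9%), against 0.974% of all 32851 windows. The full palindrome, which adds a G before and a C after that core, was in 0 of the 44 windows and in 0.326% of all windows. CACGTG, the E-box inside that core, was in 12 (27.3%), against 7.15% of all windows. The longer E-box TCATGTG, known as the M-box, was in 6 (13.6%), against 3.77%, and the cAMP response element TGACGTCA was in 2 (4.55%), against 1.79%. A match is a string of letters and not a measured binding site. The lines below give each core in capitals with 6 bases on either side, read 5′ to 3′ on the gene's strand.
Atp6v1a, chr16:44139378-44139397, minus strand: tttaaaTCACGTGAtaggct
Atp6v0d1, chr8:105566055-105566074, minus strand: ctgcggTCACGTGAgacgcg
Atp6v0e, chr17:26676392-26676411, plus strand: cgccgaTCACGTGAgcctct
Ctsa, chr2:164833754-164833773, plus strand: aaactgTCACGTGAtgcaga
Ctsa, chr2:164833771-164833790, plus strand: agatgcTCACGTGAccagag
Ctsd, chr7:142387913-142387932, minus strand: cgcgtcTCACGTGAcccgtt
Gla, chrX:134601220-134601239, minus strand: gattgaTCACGTGAgcatct
Gla, chrX:134601187-134601206, minus strand: tctcggTCACGTGAgcaact
Mcoln1, chr8:3500467-3500486, plus strand: ccccgcTCACGTGAccgcgg
The first base of the core lay between position -228 and position 5, counted from the start. Ctsa and Gla each held 2 copies. The 7 genes with a core did not share a response to isoproterenol. The log2 differences, isoproterenol minus vehicle, ran from -1.08 for Mcoln1 to 0.33 for Gla in DPP4_pos cells, and from -0.11 for Mcoln1 to 1.10 for Gla in DPP4_neg cells.

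Whole windows follow for 4 genes that carry the results below, with the motifs searched in capitals. Gla and Mcoln1 are the highest and lowest responders of the 7 genes with a core, Scarb2 had the largest rise in DPP4_pos cells, and Mitf had the largest difference between the populations. The Scarb2 window (chr5:92505608-92505907, minus strand) holds the M-box on its opposite strand, from position -32. The Mitf window (chr6:97991533-97991832, plus strand) is 1 of 3 windows of that gene and holds TGACGTCA from position -153. The other windows of Mitf hold none of the motifs searched. The Gla window is chrX:134600956-134601255 on the minus strand, and the Mcoln1 window is chr8:3500269-3500568 on the plus strand. Which start these cells used was not measured.
Gla: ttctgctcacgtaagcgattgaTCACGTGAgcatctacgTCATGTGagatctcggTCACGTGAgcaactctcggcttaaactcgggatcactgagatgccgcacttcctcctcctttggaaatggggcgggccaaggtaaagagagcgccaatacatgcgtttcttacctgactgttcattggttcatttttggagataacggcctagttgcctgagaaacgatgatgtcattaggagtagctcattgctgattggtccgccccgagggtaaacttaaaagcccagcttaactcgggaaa
Mcoln1: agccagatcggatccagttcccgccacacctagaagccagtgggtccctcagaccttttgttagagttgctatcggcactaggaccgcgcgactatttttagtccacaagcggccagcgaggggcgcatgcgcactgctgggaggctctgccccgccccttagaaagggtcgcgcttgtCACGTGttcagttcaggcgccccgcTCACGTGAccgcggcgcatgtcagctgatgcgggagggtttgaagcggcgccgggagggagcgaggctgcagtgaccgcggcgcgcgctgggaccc
Scarb2: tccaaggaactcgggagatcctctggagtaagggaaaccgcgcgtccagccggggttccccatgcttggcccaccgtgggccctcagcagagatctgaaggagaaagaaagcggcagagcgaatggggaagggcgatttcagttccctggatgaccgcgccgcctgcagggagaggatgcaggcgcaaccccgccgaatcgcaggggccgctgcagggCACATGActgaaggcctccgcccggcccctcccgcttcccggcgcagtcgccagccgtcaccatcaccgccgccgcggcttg
Mitf: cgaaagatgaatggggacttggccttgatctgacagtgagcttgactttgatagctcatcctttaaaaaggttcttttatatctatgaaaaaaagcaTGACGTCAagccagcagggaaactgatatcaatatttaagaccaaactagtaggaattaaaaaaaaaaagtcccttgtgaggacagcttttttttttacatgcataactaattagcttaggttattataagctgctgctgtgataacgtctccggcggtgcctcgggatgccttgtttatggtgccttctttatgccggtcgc

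Isoproterenol moved the lysosomal genes in both directions in DPP4_pos cells and mostly upward in DPP4_neg cells. In DPP4_pos cells, 15 of the 41 rose and 15 fell (limma on log2 of the normalized count plus 1, Benjamini-Hochberg adjusted p under 0.05), where 39.4% of all tested genes rose and 43.3% fell. In DPP4_neg cells, 22 of the 41 rose and 4 fell, where 32.1% of all tested genes rose and 33.6% fell. Both DPP4_pos shares were below those of all tested genes, whereas in DPP4_neg cells the share that rose was above and the share that fell below. The median log2 difference of the 41 was -0.02 in DPP4_pos cells, against -0.05 over all tested genes, and 0.13 in DPP4_neg cells, against -0.02 over all tested genes. The DPP4_pos count depended on scaling: quantile normalization gave 6 higher and 29 lower, and the trimmed mean of M values (TMM) gave 12 higher and 18 lower. In DPP4_neg cells quantile normalization gave 20 higher and 5 lower.

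Across both populations, 14 of the 41 genes (34.1%) rose in each, as did 25.9% of all tested genes: Atp6v1e1, Atp6v1h, Atp6v0a1, Atp6v0c, Atp6v0e, Atp6ap1, Atp6ap2, Ctsl, Gla, Lamp2, Psap, Scarb2, Cd63 and Tfe3. Of these, Atp6v0e, Atp6ap1, Atp6ap2, Ctsl, Lamp2, Psap and Cd63 had a DPP4_pos difference below 0 under quantile normalization. Tpp1 and Tfeb, 2 of the 41 (4.88%), fell in each population, against 26.4% of all tested genes. Another 5 (12.2%; Atp6v1a, Glb1, Lipa, Npc1 and Mitf) fell in DPP4_pos cells and rose in DPP4_neg cells, against 2.71% of all tested genes. Atp6v1f, Atp6v1g1, Ctsd, Gaa, Gusb and Lamp1 passed the test in neither, and under quantile normalization Atp6v1f, Ctsd, Gaa, Gusb and Lamp1 fell in DPP4_pos cells.

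**Figure D1:**
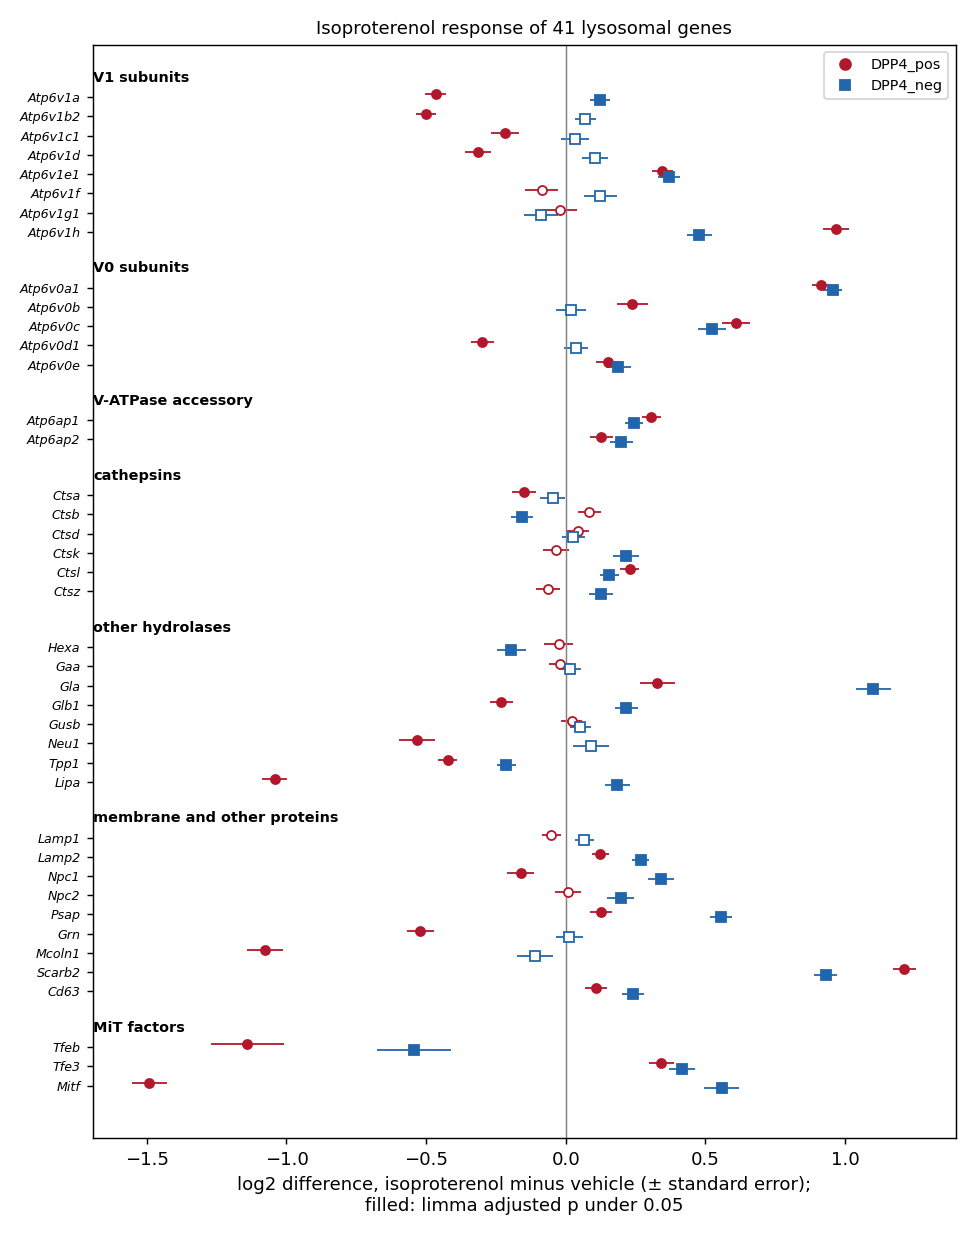
Log2 difference in normalized count, isoproterenol minus vehicle, for the 41 genes by role, with red circles for DPP4_pos and blue squares for DPP4_neg cells (4 libraries a group, bars are standard errors, filled points passed limma at an adjusted p under 0.05). Scarb2, Atp6v0a1 and Atp6v1h lie right of 0 in both populations, while Mitf, Lipa and Mcoln1 lie far left of 0 in DPP4_pos cells; quantile normalization moved the DPP4_pos values by a median of -0.28.

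Counts by role, here and in the paragraphs below, stand beside the shares of all tested genes. These were 39.4% risen and 43.3% fallen in DPP4_pos cells, and 32.1% risen and 33.6% fallen in DPP4_neg cells. Of the 8 V1 subunits, 2 rose and 4 fell in DPP4_pos cells, and 3 rose and 0 fell in DPP4_neg cells. Their summed normalized counts were 9758 to 10410 in DPP4_pos isoproterenol libraries, against 10018 to 10153 in vehicle, and 9641 to 10132 in DPP4_neg isoproterenol libraries, against 8463 to 8712 in vehicle. The sums overlapped between treatments in DPP4_pos cells and did not overlap in DPP4_neg cells.

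Atp6v1h, the regulatory H subunit that couples V1 to V0, rose more than the other V1 subunits in both populations. Its normalized counts were 2425, 2721, 2768 and 2495 in DPP4_pos isoproterenol libraries, against 1326, 1316, 1319 and 1356 in vehicle. In DPP4_neg cells they were 1848, 1954, 1789 and 1752 under isoproterenol, against 1245, 1277, 1370 and 1376 under vehicle. Every isoproterenol library was above every vehicle library of its population. The log2 difference was 0.97 ± 0.05 (SE, adjusted p = 1.63e-14, limma) in DPP4_pos and 0.48 ± 0.05 (adjusted p = 7.21e-09, limma) in DPP4_neg cells. An exon of Rgs20 overlaps Atp6v1h on the opposite strand, and the sources used here do not say whether reads were counted by strand.

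Atp6v1a, the catalytic A subunit, moved in opposite directions. It had 1845, 1927, 1863 and 1858 normalized counts in DPP4_pos isoproterenol libraries, against 2606, 2520, 2593 and 2634 in vehicle. In DPP4_neg libraries it had 2266, 2084, 2297 and 2357 under isoproterenol, against 2078, 2125, 2028 and 2023 under vehicle. The DPP4_pos treatments were far apart, whereas 1 DPP4_neg isoproterenol library lay within the vehicle range. On the log2 scale it fell by 0.47 in DPP4_pos cells and rose by 0.12 in DPP4_neg cells, and the DPP4_neg call did not hold under quantile normalization. The B subunit Atp6v1b2, which binds nucleotide beside A, had 1357, 1411, 1476 and 1383 in DPP4_pos isoproterenol libraries, against 2017, 1971, 1945 and 2026 in vehicle, and fell by 0.50. In DPP4_neg cells Atp6v1b2 had 1253, 1269, 1363 and 1242 under isoproterenol and 1225, 1222, 1245 and 1187 under vehicle, ranges that overlapped.

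Atp6v1c1, the C subunit that leaves when the pump comes apart, fell by 0.22 in DPP4_pos cells, and the rotor subunit Atp6v1d fell by 0.32. Atp6v1e1, of the outer stalks, rose by 0.35 in DPP4_pos and 0.37 in DPP4_neg cells, the DPP4_pos call not holding under quantile normalization (0.07). The rotor subunit Atp6v1f and the stalk subunit Atp6v1g1 passed in neither population, with log2 differences between -0.09 and 0.12.

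Of the 5 V0 subunits, 4 rose and 1 fell in DPP4_pos cells, and 3 rose and 0 fell in DPP4_neg cells. Both accessory proteins rose in each population. Under quantile normalization the 7 together gave 2 higher and 2 lower in DPP4_pos cells, against 6 and 1 with the size factors, and 5 higher and 0 lower in DPP4_neg cells with either scaling. The 5 V0 subunits summed to 7364 to 7547 normalized counts in DPP4_pos isoproterenol libraries, against 5625 to 5807 in vehicle, and to 8294 to 9226 in DPP4_neg isoproterenol libraries, against 6536 to 6672 in vehicle.

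Atp6v0a1, an isoform of the a subunit that holds the proton half-channels and steers where the pump goes, rose in both populations. It had 2674, 2540, 2682 and 2544 normalized counts in DPP4_pos isoproterenol libraries, against 1395, 1432, 1352 and 1352 in vehicle. In DPP4_neg libraries it had 2720, 2849, 2809 and 2781 under isoproterenol, against 1411, 1477, 1417 and 1446 under vehicle. Every isoproterenol library lay above every vehicle library, whichever the population. The fold was 1.89 (log2 0.92 ± 0.03, SE, adjusted p = 1.23e-16, limma) in DPP4_pos and 1.94 (log2 0.96 ± 0.03, adjusted p = 1.37e-16, limma) in DPP4_neg cells. The difference between the responses was -0.04 ± 0.05 and did not pass. Under quantile normalization the rises were 0.60 in DPP4_pos and 0.90 in DPP4_neg cells, with a difference of -0.29. The difference gained a call in 1 of the 25 alternatives.

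Atp6v0c, the main proteolipid of the rotating ring, had 1294, 1338, 1279 and 1330 normalized counts in DPP4_pos isoproterenol libraries, against 799.4, 897.7, 836.9 and 902.3 in vehicle. It had 1274, 1363, 1492 and 1288 in DPP4_neg isoproterenol libraries, against 961.5, 976.5, 886.5 and 937.8 in vehicle. The treatments did not overlap, and the log2 differences were 0.61 and 0.52. Atp6v0b, another proteolipid of the ring, rose by 0.24 in DPP4_pos cells and had a log2 difference of 0.02 in DPP4_neg cells that did not pass. Its DPP4_pos call did not hold under quantile normalization (0.06).

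Atp6v0d1 couples the rotor to the ring. It had 1072, 1132, 1114 and 1112 normalized counts in DPP4_pos isoproterenol libraries, against 1351, 1372, 1345 and 1380 in vehicle, and fell by 0.30. In DPP4_neg cells it had 1462, 1681, 1434 and 1572 under isoproterenol and 1497, 1463, 1507 and 1514 under vehicle, which overlapped. Atp6v0e, a small membrane subunit, had 1311, 1423, 1378 and 1351 in DPP4_pos isoproterenol libraries, against 1212, 1225, 1262 and 1217 in vehicle, and 1908, 2165, 1808 and 1995 in DPP4_neg isoproterenol libraries, against 1659, 1769, 1740 and 1734 in vehicle. Its rises of 0.15 in DPP4_pos and 0.19 in DPP4_neg cells were small, and the first turned to -0.09 under quantile normalization. Atp6ap1, needed for assembly of the pump, rose by 0.31 and 0.24 in DPP4_pos and DPP4_neg cells, and Atp6ap2, also known as the prorenin receptor, by 0.13 and 0.20. The DPP4_pos differences of Atp6ap1 and Atp6ap2 were -0.04 and -0.10 under quantile normalization.

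Of the 6 cathepsins, which are lysosomal proteases, 1 rose and 1 fell in DPP4_pos cells, and 3 rose and 1 fell in DPP4_neg cells. All log2 differences were between -0.15 and 0.23 in DPP4_pos and between -0.16 and 0.22 in DPP4_neg cells. Under quantile normalization 0 rose and 6 fell in DPP4_pos cells, by log2 differences from -0.60 (Ctsa) to -0.21 (Ctsl).

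Ctsl, a cysteine endoprotease, had 18253, 19504, 18895 and 18171 normalized counts in DPP4_pos isoproterenol libraries, against 15792, 16108, 15806 and 16078 in vehicle. It had 9007, 9896, 9494 and 9112 in DPP4_neg isoproterenol libraries, against 8171, 8548, 8531 and 8399 in vehicle. The treatments did not overlap in either population. The rises were 0.23 in DPP4_pos and 0.16 in DPP4_neg cells, and the DPP4_pos value was -0.21 under quantile normalization. Ctsk, the collagen-cutting cathepsin, had 5441, 5730, 5553 and 5019 in DPP4_pos isoproterenol libraries and 5660, 5558, 5386 and 5665 in vehicle, which overlapped. In DPP4_neg libraries Ctsk had 2028, 2300, 1943 and 2103 under isoproterenol, against 1781, 1881, 1794 and 1744 under vehicle, and rose by 0.22. The exopeptidase Ctsz rose by 0.13 in DPP4_neg cells, Ctsb, another cysteine protease, fell by 0.16 there, and Ctsa, which protects the sialidase Neu1, fell by 0.15 in DPP4_pos cells. The aspartic protease Ctsd passed in neither population. Exons of Ctsa, Ctsb, Ctsd, Ctsl and Ctsz overlap exons of other genes, so part of their reads is uncertain. The same holds for Atp6v0b, Glb1, Lamp1 and Npc1.

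The 8 other hydrolases held the largest responses among the enzymes. In DPP4_pos cells 1 rose and 4 fell, and in DPP4_neg cells 3 rose and 2 fell. Quantile normalization gave 1 higher and 7 lower in DPP4_pos cells, and 4 higher and 2 lower in DPP4_neg cells.

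Gla, the alpha-galactosidase that clears globotriaosylceramide and whose promoter window holds 2 core motifs, had 701.1, 700.4, 757 and 695.3 normalized counts in DPP4_pos isoproterenol libraries, against 590.6, 538, 557.1 and 586.3 in vehicle. In DPP4_neg libraries it had 421.9, 461.8, 470.1 and 372.8 under isoproterenol, against 194.4, 206.4, 197.7 and 201 under vehicle. The treatments did not overlap, and the separation was wider in DPP4_neg cells. The fold was 1.26 (log2 0.33 ± 0.06, SE, adjusted p = 6.48e-05, limma) in DPP4_pos and 2.15 (log2 1.10 ± 0.06, adjusted p = 1.04e-12, limma) in DPP4_neg cells.

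Lipa, the acid lipase that splits cholesteryl esters and triglycerides, went the other way in DPP4_pos cells. It had 942.7, 918.2, 971.8 and 930.2 normalized counts in DPP4_pos isoproterenol libraries, against 2051, 1882, 1885 and 1941 in vehicle. It had 1522, 1629, 1428 and 1450 in DPP4_neg isoproterenol libraries, against 1337, 1242, 1339 and 1380 in vehicle. No isoproterenol library overlapped a vehicle library of its population. Lipa was 2.06-fold lower in DPP4_pos cells (log2 -1.04 ± 0.04, SE, adjusted p = 2.27e-15, limma) and rose by 0.19 ± 0.04 in DPP4_neg cells (adjusted p = 9.93e-04, limma).

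Hexa, the alpha subunit of beta-hexosaminidase, had 5059, 5580, 5425 and 4976 normalized counts in DPP4_pos isoproterenol libraries and 5332, 5359, 5374 and 5319 in vehicle, which overlapped. In DPP4_neg libraries Hexa had 1830, 2136, 1727 and 1739 under isoproterenol and 2086, 2164, 2155 and 2073 under vehicle. The replicate 2 isoproterenol library lay within that vehicle range and the other 3 below it, and the log2 difference was -0.19. The sialidase Neu1 fell by 0.53 in DPP4_pos cells, and Tpp1, a tripeptidyl peptidase, fell by 0.42 in DPP4_pos and 0.21 in DPP4_neg cells. The beta-galactosidase Glb1 fell by 0.23 in DPP4_pos and rose by 0.22 in DPP4_neg cells. The acid glucosidase Gaa and the beta-glucuronidase Gusb passed in neither, with log2 differences from -0.02 to 0.05, but under quantile normalization both fell in DPP4_pos cells, with values of -0.54 for Gaa and -0.28 for Gusb.

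Of the 9 membrane and other proteins, 4 rose and 3 fell in DPP4_pos cells, and 6 rose and 0 fell in DPP4_neg cells. Under quantile normalization 1 rose and 7 fell in DPP4_pos cells. Scarb2, the receptor that carries glucocerebrosidase to lysosomes, had the largest rise of the 41 genes in DPP4_pos cells. It had 4016, 4133, 4231 and 4014 normalized counts in DPP4_pos isoproterenol libraries, against 1870, 1701, 1790 and 1712 in vehicle. It had 1897, 2124, 2177 and 1954 in DPP4_neg isoproterenol libraries, against 1082, 1089, 1044 and 1054 in vehicle. Both treatments were fully apart in both populations. The fold was 2.32 in DPP4_pos cells (log2 1.21 ± 0.04, SE, adjusted p = 6.88e-17, limma) and 1.91 in DPP4_neg cells (log2 0.93 ± 0.04, adjusted p = 1.90e-14, limma).

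Mcoln1, the calcium channel that signals from lysosomes to Tfeb, had 291, 289.2, 308.3 and 302.5 normalized counts in DPP4_pos isoproterenol libraries, against 637.2, 609.4, 612.9 and 660.7 in vehicle. In DPP4_neg libraries Mcoln1 had 399.2, 412.6, 343.9 and 450.2 under isoproterenol and 452.9, 418.7, 436.3 and 417.5 under vehicle. The DPP4_pos treatments were far apart and the DPP4_neg treatments overlapped. The DPP4_pos fall was 2.11-fold (log2 -1.08 ± 0.06, SE, adjusted p = 9.18e-13, limma), and the DPP4_neg difference of -0.11 ± 0.06 did not pass (adjusted p = 0.144, limma).

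Npc2, which hands cholesterol to Npc1 for export, had 14678, 15189, 15922 and 14753 normalized counts in DPP4_pos isoproterenol libraries and 15377, 14237, 15034 and 15548 in vehicle, which overlapped. It had 6727, 8180, 7168 and 7010 in DPP4_neg isoproterenol libraries, against 6123, 6436, 6205 and 6546 in vehicle, and rose by 0.20. Npc1 fell by 0.16 in DPP4_pos and rose by 0.34 in DPP4_neg cells. Psap, the precursor of the saposins that present lipids to hydrolases, rose by 0.13 in DPP4_pos and 0.56 in DPP4_neg cells, and Grn, the progranulin gene, fell by 0.52 in DPP4_pos cells. The coat protein gene Lamp2 rose by 0.12 and 0.27, and the tetraspanin gene Cd63 by 0.11 and 0.24, in DPP4_pos and DPP4_neg cells. The DPP4_pos values of Psap, Lamp2 and Cd63 were -0.08, -0.32 and -0.39 under quantile normalization. Lamp1 passed in neither, and its DPP4_pos value of -0.52 under quantile normalization passed.

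**Figure D2:**
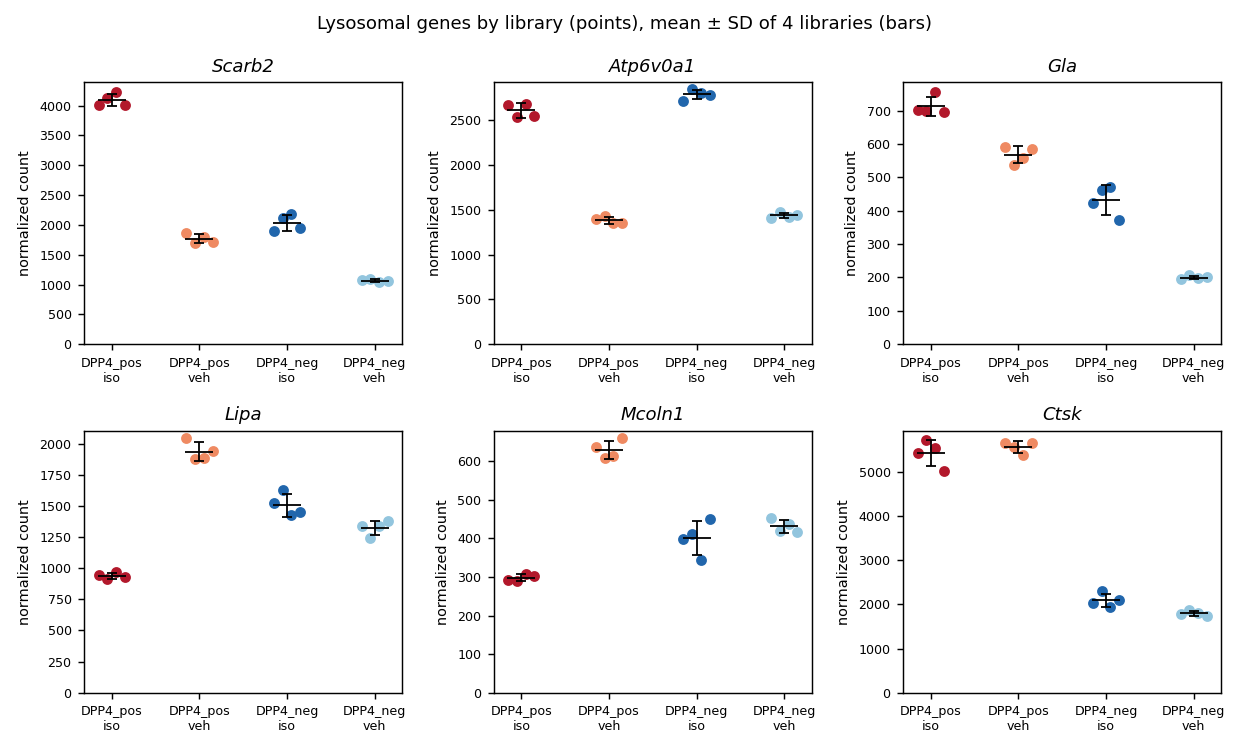
Normalized counts of Scarb2, Atp6v0a1, Gla, Lipa, Mcoln1 and Ctsk in each library (points) with mean and SD of 4 libraries (bars), for DPP4_pos isoproterenol (iso), DPP4_pos vehicle (veh), DPP4_neg iso and DPP4_neg veh. Lipa and Mcoln1 were lower under isoproterenol in DPP4_pos cells, Scarb2 and Atp6v0a1 were higher under isoproterenol in both populations, and Ctsk was set apart by population.

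The 3 MiT factors each behaved differently. Mitf had 700, 731.7, 719 and 646.4 normalized counts in DPP4_pos isoproterenol libraries, against 1948, 1908, 1940 and 2066 in vehicle. It had 536.1, 526.4, 634.1 and 525 in DPP4_neg isoproterenol libraries, against 378.2, 380.7, 406 and 341 in vehicle. Isoproterenol and vehicle were fully apart in both populations, in opposite directions. Mitf was 2.81-fold lower in DPP4_pos cells (log2 -1.49 ± 0.06, SE, adjusted p = 1.27e-15, limma) and 1.47-fold higher in DPP4_neg cells (log2 0.56 ± 0.06, adjusted p = 5.98e-08, limma). The table holds 1 value per gene, so its starts are not told apart.

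Tfeb had 73.03, 81.89, 86.22 and 82.68 normalized counts in DPP4_pos isoproterenol libraries, against 173.9, 162.7, 198.4 and 184.2 in vehicle. It had 89.89, 129.2, 116.7 and 72.19 in DPP4_neg isoproterenol libraries, against 146.4, 144.1, 141.7 and 149.5 in vehicle. All isoproterenol libraries were below all vehicle libraries of their population. The log2 differences were -1.14 ± 0.13 (SE, adjusted p = 5.79e-08, limma) in DPP4_pos and -0.54 ± 0.13 (adjusted p = 0.00105, limma) in DPP4_neg cells, and -0.75 and -0.36 under quantile normalization.

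Tfe3 had 1394, 1331, 1210 and 1332 normalized counts in DPP4_pos isoproterenol libraries, against 1056, 1007, 1039 and 1046 in vehicle. It had 1274, 1212, 1099 and 1215 in DPP4_neg isoproterenol libraries, against 914.3, 887.9, 877 and 908.7 in vehicle. The treatments did not overlap, and Tfe3 rose by 0.34 in DPP4_pos and 0.42 in DPP4_neg cells (0.12 and 0.39 under quantile normalization). Per kilobase of merged exons, the mean levels of Tfe3, Mitf and Tfeb were 364, 131 and 20.2 normalized counts in DPP4_pos isoproterenol and 286, 370 and 44.8 in DPP4_pos vehicle libraries. The same levels were 332, 104 and 25.4 in DPP4_neg isoproterenol and 248, 70.8 and 36.2 in DPP4_neg vehicle libraries. Tfeb was thus the lowest of the 3 in every group, and Mitf lay above Tfe3 in DPP4_pos vehicle libraries.

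**Figure D3:**
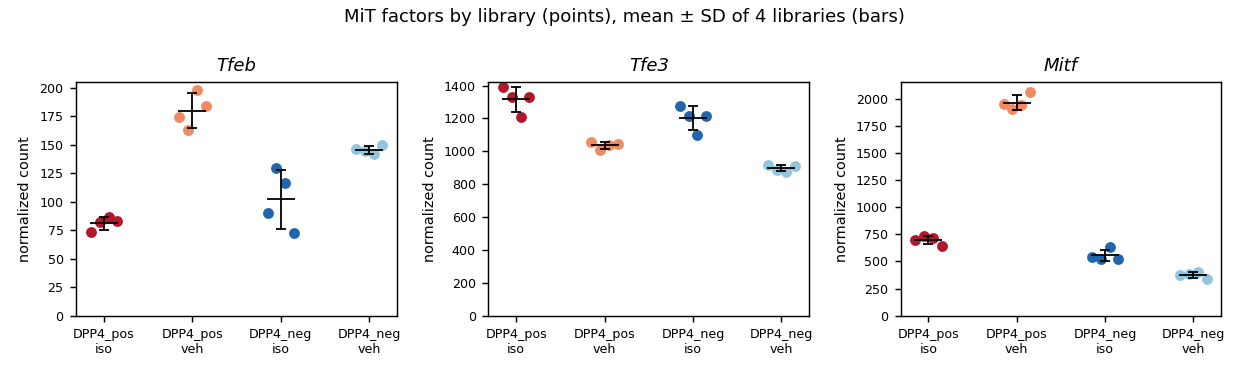
Normalized counts of Tfeb, Tfe3 and Mitf in each library (points) with mean and SD of 4 libraries (bars) in DPP4_pos isoproterenol (iso), DPP4_pos vehicle (veh), DPP4_neg iso and DPP4_neg veh. Mitf averaged 699.3 in DPP4_pos iso against 1966 in DPP4_pos veh, and 555.4 in DPP4_neg iso against 376.5 in DPP4_neg veh.

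The responses of the populations were compared directly, as the DPP4_pos response minus the DPP4_neg response. This difference passed upward for 5 of the 41 genes and downward for 23, where 31.6% and 31% of all tested genes passed. The median was -0.14 for the 41 and -0.02 for all tested genes. Under quantile normalization the counts were 1 upward and 34 downward, and under TMM 3 and 24. The same libraries enter this difference and the separate responses above, so it is not further evidence of either. The upward 5 were Atp6v1h (0.49), Scarb2 (0.28), Ctsb (0.24), Atp6v0b (0.22) and Hexa (0.17). Of these, Atp6v1h kept a value above 0 with a call under quantile normalization (0.22), whereas Scarb2, Ctsb and Hexa were at -0.01, -0.09 and -0.21. Atp6v0b was at 0.07 there, without a call.

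By role, the difference passed downward for 5 of 8 V1 subunits, 1 of 5 V0 subunits, 0 of 2 accessory proteins, 2 of 6 cathepsins, 5 of 8 other hydrolases, 8 of 9 membrane and other proteins and 2 of 3 MiT factors. The largest were Mitf (-2.05 ± 0.09, SE, adjusted p = 2.04e-14, limma), Lipa (-1.23 ± 0.06, adjusted p = 4.19e-13, limma), Mcoln1 (-0.97 ± 0.09, adjusted p = 7.49e-09, limma) and Gla (-0.77 ± 0.09, adjusted p = 1.67e-07, limma). Atp6v1a led the V1 subunits at -0.59 and Atp6v0d1 was the V0 subunit at -0.34.

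The populations were then compared under each treatment. Under isoproterenol, 25 of the 41 genes were higher in DPP4_pos than in DPP4_neg cells and 12 were lower, where 37.4% of all tested genes were higher and 37% lower. Under vehicle, 29 were higher and 4 lower, where 31.6% of all tested genes were higher and 35% lower. The medians of the 41 were 0.18 under isoproterenol and 0.47 under vehicle, against -0.0044 and -0.0102 over all tested genes. Quantile normalization gave 18 higher and 14 lower under isoproterenol, and 29 and 5 under vehicle.

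Under vehicle, all 14 hydrolases and all 9 membrane and other proteins were higher in DPP4_pos cells, under size factors, TMM and quantile normalization alike. The 14 hydrolases summed to 115700 to 120640 normalized counts in DPP4_pos isoproterenol libraries and 112890 to 117160 in DPP4_pos vehicle libraries, against 56124 to 63440 and 56798 to 59510 in DPP4_neg isoproterenol and vehicle libraries. The 15 V-ATPase genes were split. Under isoproterenol 4 were higher and 7 lower in DPP4_pos cells, and their sums, 22283 to 23266 in DPP4_pos and 22824 to 24283 in DPP4_neg libraries, overlapped. Under vehicle 3 were higher and 4 lower, and their sums were 20056 to 20211 in DPP4_pos and 19165 to 19595 in DPP4_neg libraries.

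Ctsk had the largest difference among the cathepsins under both treatments, at 1.38 ± 0.05 under isoproterenol (SE, adjusted p = 6.34e-17, limma) and 1.63 ± 0.05 under vehicle (adjusted p = 4.01e-18, limma). Under isoproterenol Ctsb, at 1.36 ± 0.04, was less than 1 standard error from Ctsk. Among the other hydrolases Hexa led under isoproterenol, at 1.504 ± 0.051 (SE, adjusted p = 8.67e-17, limma), and Gla was at 1.501 ± 0.063 under vehicle (adjusted p = 4.18e-15, limma). Gaa, at 1.48 ± 0.04 under vehicle, was less than 1 standard error from Gla, and quantile normalization turned their order. The lowest DPP4_pos library was above the highest DPP4_neg library for Ctsk, Ctsl, Hexa, Gla and Npc2 under both treatments, as the values above show. So it was for Atp6v1e1, Ctsa, Ctsb, Ctsd, Ctsz, Gaa, Glb1, Gusb, Tpp1, Lamp1, Lamp2, Psap, Grn, Scarb2, Cd63 and Mitf. How many of all tested genes were apart in this way was not counted. Npc2, at 1.06 under isoproterenol and 1.25 under vehicle, led the membrane and other proteins. Lipa was lower in DPP4_pos cells under isoproterenol (-0.68) and higher under vehicle (0.55), and Mcoln1 (-0.42 and 0.55), Npc1 (-0.28 and 0.22), Neu1 (-0.16 and 0.47), Atp6v1a (-0.26 and 0.33) and Tfeb (-0.30 and 0.30) did likewise. The Neu1 call under isoproterenol had an adjusted p of 0.0331 (limma) and was lost in 8 of 26 alternatives.

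Per kilobase of merged exons, Ctsd, Ctsb and Psap were among the highest of the 41, at 10336, 8210 and 10862 normalized counts in DPP4_pos isoproterenol and 10035, 7743 and 9948 in DPP4_pos vehicle libraries. They were at 6302, 3206 and 8821 in DPP4_neg isoproterenol and 6176, 3571 and 5990 in DPP4_neg vehicle libraries. The V1 subunits lay between 175 (Atp6v1d) and 1410 (Atp6v1e1) in DPP4_pos isoproterenol libraries, below these on the same scale.

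Mitf was 1.26-fold higher in DPP4_pos than in DPP4_neg cells under isoproterenol (log2 0.33 ± 0.06, SE, adjusted p = 4.75e-05, limma), and 5.22-fold higher under vehicle (log2 2.38 ± 0.06, adjusted p = 8.33e-19, limma). Tfe3 was higher by 0.13 under isoproterenol (-0.03 under quantile normalization) and by 0.21 under vehicle. The Tfeb calls were close to the threshold, with adjusted p = 0.0471 under isoproterenol and 0.0493 under vehicle (limma), and 16 and 14 of 26 alternatives lost them. Of the V-ATPase genes, Atp6v1h was highest relative to DPP4_neg cells under isoproterenol, at 0.50, and Atp6v1b2 under vehicle, at 0.71. Atp6v0e was lower in DPP4_pos cells under both treatments, at -0.52 under isoproterenol and -0.49 under vehicle.

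**Figure D4:**
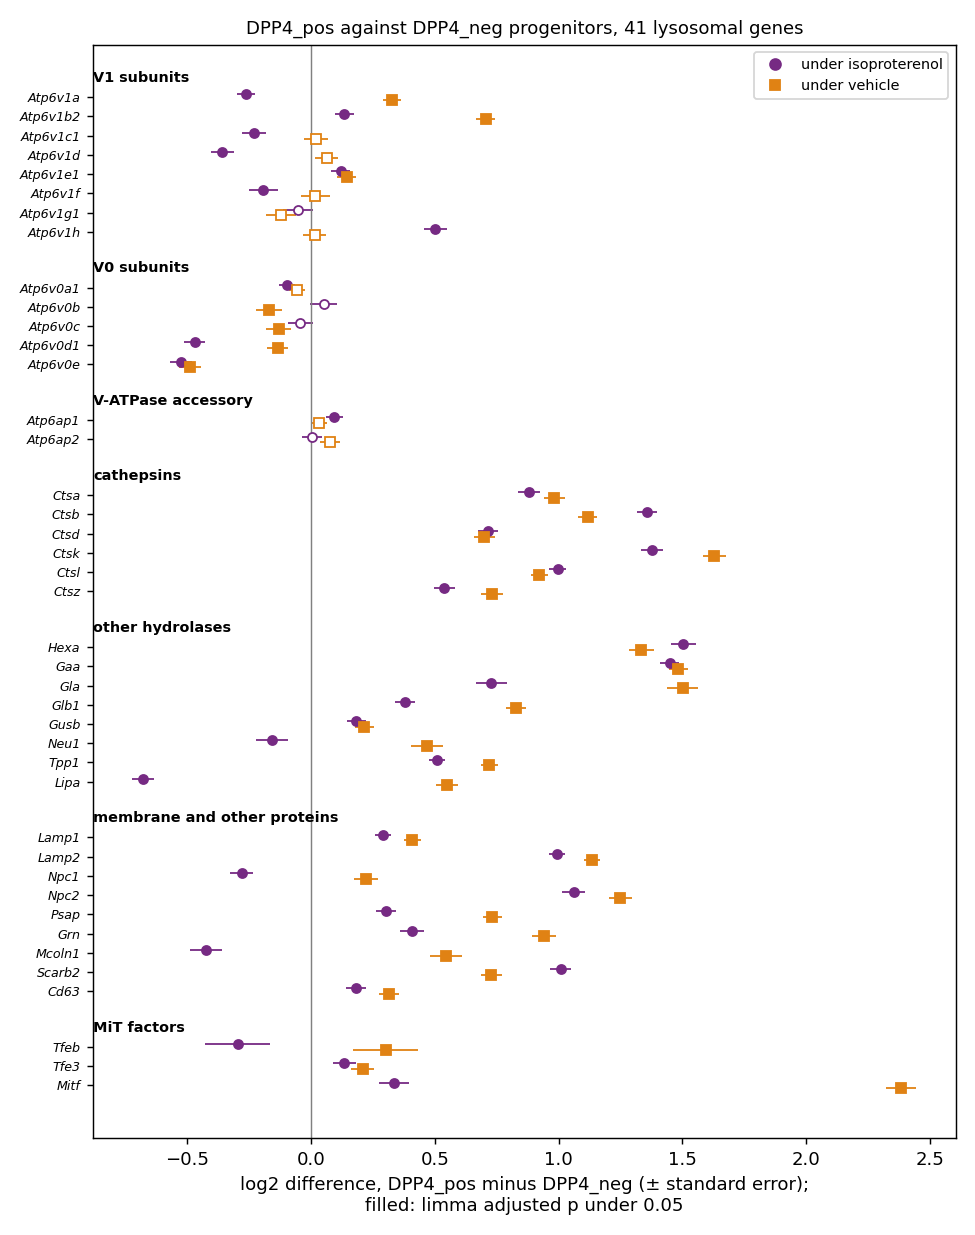
Log2 difference in normalized count, DPP4_pos minus DPP4_neg, for the 41 genes by role, with purple circles under isoproterenol and orange squares under vehicle (4 libraries a group, bars are standard errors, filled points passed limma at an adjusted p under 0.05). All 14 hydrolases lie right of 0 under vehicle, between 0.21 and 1.63, while the V-ATPase genes lie between -0.49 and 0.71; under quantile normalization the isoproterenol points moved by a median of -0.21.

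Markers of stromal progenitors and of other cell types also moved with these groups. In a bulk sample, more cells of a type and more RNA per cell cannot be told apart. Marker counts in this paragraph stand beside the shares of all tested genes. With isoproterenol 39.4% of these rose and 43.3% fell in DPP4_pos cells, and 32.1% rose and 33.6% fell in DPP4_neg cells. In DPP4_pos against DPP4_neg cells, 37.4% were higher and 37% lower under isoproterenol, and 31.6% higher and 35% lower under vehicle. The 9 stromal progenitor markers (Pdgfra, Pdgfrb, Col1a1, Col3a1, Dcn, Lum, Thy1, Ly6a and Cd34) summed to 388850 to 408220 normalized counts in DPP4_pos isoproterenol libraries, against 522210 to 529680 in vehicle, and to 309010 to 347730 in DPP4_neg isoproterenol libraries, against 323220 to 332170 in vehicle. With isoproterenol 0 of the 9 rose and 7 fell in DPP4_pos cells, and 3 rose and 2 fell in DPP4_neg cells. Pdgfra averaged 10639 in DPP4_pos isoproterenol libraries, against 33546 in vehicle, and 10597 in DPP4_neg isoproterenol libraries, against 13351 in vehicle. Cd34 averaged 1786 and 2618 in DPP4_pos isoproterenol and vehicle libraries, against 60.9 and 36.3 in DPP4_neg isoproterenol and vehicle libraries. Between the populations, 5 were higher and 3 lower in DPP4_pos cells under isoproterenol, and 6 higher and 2 lower under vehicle. The 15 macrophage and leukocyte markers, whose cells are rich in lysosomes, summed to 644 to 1877 normalized counts in DPP4_pos isoproterenol, 588 to 1434 in DPP4_pos vehicle, 728 to 2029 in DPP4_neg isoproterenol and 450 to 1084 in DPP4_neg vehicle libraries. Of 13 tested, 2 rose with isoproterenol in DPP4_pos and 3 in DPP4_neg cells, 1 was higher in DPP4_pos cells under vehicle and 0 were lower there, and Ptprc, the pan-leukocyte marker, was between 0 and 31.9 in every library. The 8 mural markers summed to 4630 to 5634 in DPP4_pos isoproterenol and 6911 to 8071 in DPP4_pos vehicle libraries, against 74736 to 81243 and 107640 to 119030 in DPP4_neg isoproterenol and vehicle libraries. Most of each sum was Acta2, at means of 3983 and 6126 in DPP4_pos and 68176 and 99429 in DPP4_neg isoproterenol and vehicle libraries. Of the 8, 3 rose and 5 fell with isoproterenol in DPP4_pos cells, and 1 rose and 5 fell in DPP4_neg cells. Between the populations, 2 were higher and 6 lower in DPP4_pos cells under isoproterenol, and 0 higher and 5 lower under vehicle. The 8 endothelial markers summed to 1302 to 1419 and 1184 to 1249 in DPP4_pos isoproterenol and vehicle libraries, against 242 to 302 and 208 to 237 in DPP4_neg isoproterenol and vehicle libraries. Of 5 tested, 2 rose and 1 fell with isoproterenol in DPP4_pos cells, and 3 rose and 1 fell in DPP4_neg cells. All 5 were higher in DPP4_pos cells under each treatment. Within these sums Kdr and Tek moved in opposite directions. Kdr averaged 684 and 39.9 in DPP4_pos isoproterenol and vehicle libraries, and 121 and 13.7 in DPP4_neg. Tek averaged 410 and 1013 in DPP4_pos isoproterenol and vehicle libraries, and 35.3 and 140 in DPP4_neg. The 5 adipocyte markers summed to 3633 to 4302 in DPP4_pos isoproterenol libraries, against 10711 to 12057 in vehicle, and to 11112 to 13304 in DPP4_neg isoproterenol libraries, against 28827 to 33271 in vehicle, and all 4 tested fell with isoproterenol in each population. Lep was at 0 in both isoproterenol groups. All 4 adipocyte markers tested were lower in DPP4_pos cells under each treatment. Of the 13 macrophage and leukocyte markers tested, 1 was higher and 1 lower in DPP4_pos cells under isoproterenol. The 6 mesothelial and epithelial markers summed to 124 to 180 and 87.7 to 137 in DPP4_pos isoproterenol and vehicle libraries. In DPP4_neg libraries they summed to 1305 to 1717 and 617 to 820. Only Krt19 was tested, which rose in both populations and was lower in DPP4_pos cells. The part of these cell types in the results above was not tested.

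A further 121 lysosomal and autophagy genes were listed by role, of which 114 were tested. In DPP4_pos cells 35 of these rose and 62 fell with isoproterenol, where 39.4% of all tested genes rose and 43.3% fell. In DPP4_neg cells 43 rose and 35 fell, where 32.1% of all tested genes rose and 33.6% fell. Of 35 further hydrolases, 3 rose and 28 fell in DPP4_pos cells, and 10 rose and 15 fell in DPP4_neg cells. The DPP4_pos split held under quantile normalization, with 2 higher and 29 lower. Idua, the iduronidase, fell by 1.601 in DPP4_pos and 0.67 in DPP4_neg cells, Hyal1, a hyaluronidase, by 2.02 and 0.75, and Acp2, an acid phosphatase, by 1.05 and 0.25. Ppt2, a thioesterase, rose by 0.48 in DPP4_pos and 1.399 in DPP4_neg cells, and the tartrate-resistant phosphatase Acp5 fell by 0.63 in DPP4_pos and fell by 1.81 in DPP4_neg cells. Between the populations, 20 of the 35 were higher and 11 lower in DPP4_pos cells under isoproterenol, where 37.4% of all tested genes were higher and 37% lower. Under vehicle 26 were higher and 4 lower, where 31.6% of all tested genes were higher and 35% lower.

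Of 24 further membrane proteins, 4 rose and 15 fell in DPP4_pos cells, and 8 rose and 10 fell in DPP4_neg cells. Between the populations, 5 of the 24 were higher and 14 lower in DPP4_pos cells under isoproterenol, where 37.4% of all tested genes were higher and 37% lower. Under vehicle 18 were higher and 1 lower, where 31.6% of all tested genes were higher and 35% lower. Tpcn2, an endolysosomal cation channel, averaged 2095 ± 120 normalized counts in DPP4_pos isoproterenol libraries, against 559 ± 14 in vehicle, and 1842 ± 100 in DPP4_neg isoproterenol libraries, against 511 ± 46 in vehicle (SD, n = 4 each). Its rises of 1.90 in DPP4_pos and 1.85 in DPP4_neg cells were above those of all 41 genes. The cystine exporter Ctns fell by 1.86 in DPP4_pos and 0.61 in DPP4_neg cells, and the peptide transporter Abcb9 by 2.02 and 0.85. Mcoln2, a relative of Mcoln1, averaged 268 ± 14 in DPP4_pos isoproterenol libraries, against 83.5 ± 4.7 in vehicle, and rose by 1.67. In DPP4_neg cells Mcoln2 was far lower, at 5.77 ± 2.6 under isoproterenol and 11.0 ± 1.3 under vehicle. These means lie about the count minimum of 10, so the DPP4_neg log2 difference of -0.89 rests on few reads. It is not taken as a response.

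Of 12 further V-ATPase isoforms and assembly factors, 5 rose and 4 fell in DPP4_pos cells, and 3 rose and 1 fell in DPP4_neg cells. For these and the sorting genes below, 39.4% of all tested genes rose and 43.3% fell in DPP4_pos cells. In DPP4_neg cells 32.1% of all tested genes rose and 33.6% fell. Atp6v0a2, another a subunit, rose by 0.59 in DPP4_pos and 0.36 in DPP4_neg cells, and Tcirg1, the a subunit of osteoclasts, fell by 0.65 in DPP4_pos and rose by 0.22 in DPP4_neg cells. Tmem199, an assembly factor, rose by 0.31 and 0.25, and Rogdi fell by 1.02 in DPP4_pos cells. Of 9 sorting genes, 5 rose and 4 fell in DPP4_pos cells, and 3 rose and 3 fell in DPP4_neg cells. Sort1, the sorting receptor sortilin, fell by 1.85 in DPP4_pos and 1.62 in DPP4_neg cells. M6pr, a mannose 6-phosphate receptor, rose by 0.77 in DPP4_pos and fell by 0.46 in DPP4_neg cells. The adaptor Gga2 rose by 0.62 and 0.80, and Gnptab, which starts the mannose 6-phosphate tag, by 0.23 and 0.68, the DPP4_pos value of Gnptab being -0.04 under quantile normalization.

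Of 18 nutrient-sensing genes, 7 rose and 7 fell in DPP4_pos cells, and 7 rose and 5 fell in DPP4_neg cells, shares near those of all tested genes. Flcn, folliculin, which acts on the Rag GTPases that hold Tfeb and Tfe3 at the lysosome, rose by 0.90 in DPP4_pos and 1.20 in DPP4_neg cells. Its partner Fnip2 rose by 0.43 and 0.52, and Rptor, the raptor subunit of mTORC1, by 0.96 and 0.47. Lamtor1, the membrane anchor of the Ragulator, fell by 0.80 and 0.34. Of 16 autophagy genes, 11 rose and 4 fell in DPP4_pos cells, where 39.4% of all tested genes rose and 43.3% fell. In DPP4_neg cells 12 rose and 1 fell, where 32.1% of all tested genes rose and 33.6% fell. Under quantile normalization 6 autophagy genes were higher and 6 lower in DPP4_pos cells. Gabarapl1 rose by 0.54 and 0.78, Atg16l1 by 0.81 and 0.34, and the cargo receptor gene Sqstm1 by 0.45 and 0.64, the DPP4_pos value of Sqstm1 being -0.05 under quantile normalization. Wipi1, which binds phosphoinositide on forming autophagosomes, fell by 1.74 in DPP4_pos and 0.75 in DPP4_neg cells, and Map1lc3b fell by 0.71 in DPP4_pos cells.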

How the data were processed

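Bulk RNA-seq of 16 libraries, made from 500 ng of total RNA each per the labels' protocols, was deposited as 1 table. Per the submitters' processing notes, the tools were DESeq2 1.6.3, featureCounts 1.4.6, HISAT2 2.0.1 and Trim Galore 0.4.1, with GRCm38 (mm10). The sources used here give no settings, annotation or use of strand. The deposited values are a normalized signal, the authors' read count divided by a size factor: 100.0% of the 280334 values above 0 were whole multiples of a library's step, within 0.001. Entries without a symbol (958) held 0.0926% of counts and are not named.

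The normalized counts were taken as log2(count + 1). Genes with at least 10 in at least 4 libraries were fitted with limma 3.58.1 (R 4.3.3, trended prior), with 1 mean per group over 16 libraries and Benjamini-Hochberg adjustment over 14005 genes, in 5 comparisons. A gene passed at an adjusted p under 0.05. Fold changes are on the log2(count + 1) scale. edgeR 4.0.16 and DESeq2 1.42.0 on the recovered counts, other scalings, filters, pseudocounts, a fit of only the groups compared, a block on replicate number and leaving out each library were alternatives. The fits were tested on simulated data.

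The members and all gene lists were chosen with earlier results of these data known. Values per library are given for the 3 MiT factors and, within each role, for the called gene with the largest difference in each comparison; Atp6v0c was added after its values were seen. Further genes are named as the 3 largest calls per list with a mean of at least 50. Levels between genes are per kilobase of merged GENCODE exons. Promoter windows are from RefSeq (GRCm38.p6). Pairs of replicates of a group differed by more than sampling noise (chi-square per degree of freedom 1.61 to 9.21).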

Additional observations from a re-analysis of the deposited data

Results flagged for a closer look

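In 10 of the 164 groups of 4 libraries, 1 library stood apart from the other 3 by more than Dixon's 95% critical value for 4 samples. Chance alone gives about 1 in 20. In DPP4_pos isoproterenol libraries these were Ctsb at 39793 in replicate 2, Gla at 757 in replicate 3 and Npc1 at 1028 in replicate 2. In DPP4_pos vehicle libraries they were Ctsz at 5899 and Lamp1 at 15373 in replicate 4, and Grn at 7844 in replicate 2. In DPP4_neg isoproterenol libraries they were Atp6v1c1 at 992.2 and Mitf at 634.1 in replicate 3, and Atp6v1d at 746.7 in replicate 1. In DPP4_neg vehicle libraries Atp6v1d was at 801.1 in replicate 4. All are normalized counts. No library accounted for more than 2 of the 10.

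For 28 of the 41 genes the response to isoproterenol differed between the populations by the interaction test in limma, 5 upward and 23 downward. Over all tested genes 31.6% passed upward and 31% downward, so many calls are common to the whole table. Each of the 28 genes is given with the DPP4_pos response minus the DPP4_neg response (log2) and its adjusted p. The difference was above 0 for Atp6v1h (0.49, 1.32e-06), Atp6v0b (0.22, 0.0161), Ctsb (0.24, 0.000883), Hexa (0.17, 0.0477) and Scarb2 (0.28, 0.000351). Among the V1 subunits it was below 0 for Atp6v1a (-0.59, 2.22e-09), Atp6v1b2 (-0.57, 5.46e-09), Atp6v1d (-0.42, 9.8e-06), Atp6v1c1 (-0.25, 0.00356) and Atp6v1f (-0.21, 0.0353). Among the V0 subunits it was below 0 for Atp6v0d1 (-0.34, 4.58e-05). Of the cathepsins, it was below 0 for Ctsk (-0.25, 0.00214) and Ctsz (-0.19, 0.00912). Of the other hydrolases, it was below 0 for Lipa (-1.23, 4.19e-13), Gla (-0.77, 1.67e-07), Neu1 (-0.63, 4.38e-06), Glb1 (-0.45, 5.41e-07) and Tpp1 (-0.21, 0.00058). In the membrane and other proteins it was below 0 for Mcoln1 (-0.97, 7.49e-09), Grn (-0.53, 6.25e-07), Npc1 (-0.50, 1.16e-06), Psap (-0.43, 7.86e-07), Npc2 (-0.19, 0.0195), Lamp2 (-0.14, 0.00843), Cd63 (-0.13, 0.0457) and Lamp1 (-0.12, 0.0393). In the MiT factors it was below 0 for Mitf (-2.05, 2.04e-14) and Tfeb (-0.60, 0.00825). The calls for Hexa, Cd63, Lamp1 and Atp6v1f were lost in 16, 13, 11 and 9 of the 25 alternatives run for this difference.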

How the results depend on the processing

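Each value of the 41 genes was recomputed under 26 alternatives, 16 of which leave out 1 library; the difference of responses had 25, since the fit of only 2 groups cannot give it. Of 5289 such values, 5087 kept their direction and side of the threshold, 119 lost and 58 gained a call, and 25 turned, all of them under quantile normalization. Another 47 changed sign with no call on either side and are counted as kept. Alternatives for the further genes were chosen after seeing the data; 1332 of 1352 values kept direction and side, 11 lost and 7 gained a call, and 2 turned, and 8 of Map1lc3b changed sign with no call and are counted as kept. Why scalings differ was not tested. Under quantile normalization the DPP4_pos response gave 6 members higher and 29 lower, and the difference of responses 1 higher. TMM and edgeR each gave 3 higher for that difference. The values that turned were, for the DPP4_pos response, Atp6v0e -0.0868, Atp6ap1 -0.0426, Atp6ap2 -0.10, Ctsb -0.25, Ctsd -0.29, Ctsl -0.21, Gusb -0.28, Lamp2 -0.32, Npc2 -0.46, Psap -0.0798, Cd63 -0.39, Gnptab -0.0389 and Sqstm1 -0.0472. For the difference of responses they were Atp6ap1 -0.20, Ctsb -0.0881, Ctsd -0.34, Ctsl -0.29, Hexa -0.21 and Scarb2 -0.0120. For the populations under isoproterenol they were Atp6v1b2 -0.0380, Atp6v1e1 -0.0851, Atp6ap1 -0.13, Atp6ap2 -0.16, Gusb -0.0279, Lamp1 -0.0659, Cd63 -0.0933 and Tfe3 -0.0347.

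Leaving out 1 library gave 14 to 16 members higher and 15 to 16 lower in the DPP4_pos response, 21 to 24 and 4 to 6 in the DPP4_neg response, and 4 to 6 and 20 to 23 in their difference. It gave 24 to 26 and 10 to 12 for the populations under isoproterenol, and 28 to 29 and 3 to 5 under vehicle. The genes called over the whole table ranged from 11298 to 11659, 8707 to 9306, 8420 to 8699, 10150 to 10360 and 8838 to 9481 in the same order. Same-numbered libraries did not deviate together (correlations -0.23 to 0.13; 6 of 16 libraries best with their own number). A replicate block gave 16 higher and 15 lower in the DPP4_pos response, 24 and 4 in the DPP4_neg response, 5 and 23 in their difference, and for the populations 25 and 12 under isoproterenol and 29 and 5 under vehicle. Medians of all genes moved by less than 0.1 under TMM and quantile normalization. The Tfeb population calls were lost in 16 (isoproterenol) and 14 (vehicle) alternatives.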
